A study of Mus musculus with 2 samples.

Results

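The genes described here are Bhlhe40, Bhlhe41 and Ciart, 3 of the 33757 gene features in the count table. They were chosen by name as transcriptional repressors of the circadian clock that act on E-box elements. In the files they are ENSMUSG00000030103.12 (Bhlhe40, chromosome 6), ENSMUSG00000030256.12 (Bhlhe41, chromosome 6) and ENSMUSG00000038550.11 (Ciart, chromosome 3), all protein coding. The cells were unsynchronized NIH3T3-Rev-VNP1-H2B-iRFP fibroblasts, a derivative of the mouse fibroblast line NIH3T3. The line carries a Venus reporter named for Nr1d1 and a near-infrared iRFP fused to histone H2B, and every cell of both plates carried both reporters. No cell was treated, and the clocks of the cells were not aligned before sorting, at 95% confluency about 5 days after seeding. Single cells were sorted by Venus fluorescence into 4 bins, and the whole length of their transcripts was sequenced with FLASH-seq. Plate 1 held only the high RFP sort and plate 2 only the low RFP sort, so sort and plate cannot be told apart. The wells of a Venus bin lay in the same block of 6 columns in each plate, so bin and well position cannot be told apart either.

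In the mammalian clock, the activators CLOCK and BMAL1 (gene Arntl) bind E-box elements, with the core letters CACGTG, and switch on the genes of their own repressors. Bhlhe40 (DEC1) and Bhlhe41 (DEC2) are basic helix-loop-helix repressors that bind such E-boxes themselves and compete with the activators. Ciart (CHRONO) lacks that DNA-binding domain and represses by binding the activator complex. Dbp, an E-box target that encodes a D-box activator, and Arntl, which is repressed by the Nr1d1 and Nr1d2 proteins, mark opposite phases of the cycle.

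Bhlhe40 had no window in the promoter set used, so its promoter was not searched. Promoter sequences of the other 2 members are shown because the activators named above act through E-boxes. They are RefSeq windows of build GRCm38.p6, from 250 to 31 bases before the start, read 5′ to 3′ on the gene's own strand with CACGTG in capitals. The first lies at chr6:145865451-145865670 and the second at chr3:95882259-95882478, both on the minus strand.
Bhlhe41: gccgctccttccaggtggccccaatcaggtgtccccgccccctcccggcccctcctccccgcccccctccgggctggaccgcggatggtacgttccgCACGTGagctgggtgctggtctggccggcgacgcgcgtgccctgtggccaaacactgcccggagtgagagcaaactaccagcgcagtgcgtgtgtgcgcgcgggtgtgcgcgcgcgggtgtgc
Ciart: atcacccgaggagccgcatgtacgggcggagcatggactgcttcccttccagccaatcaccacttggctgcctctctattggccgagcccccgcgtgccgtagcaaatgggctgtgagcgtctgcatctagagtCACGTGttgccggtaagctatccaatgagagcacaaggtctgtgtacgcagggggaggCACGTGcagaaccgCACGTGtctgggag
The Bhlhe41 window held 1 CACGTG, with its first letter 153 bases before the start. The Ciart window held 3, at 116, 58 and 44 bases before the start. CACGTG reads the same on both strands, and it occurred in 5.01% of 32851 promoter windows of this length. Only 14 windows (0.0426%) held 3 or more. The variant CACGTT, searched on both strands, occurred in 3.40% of windows and in neither of those shown. Such a match is a description of letters and does not show binding.

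After filtering, 383 cells of plate 1 and 379 of plate 2 remained, with 151173 to 1618022 counts per cell. Counts were summed per plate and bin, which gave 8 sums of 76042157 to 86612194 counts. Levels are given as CPM, counts scaled to the library total, with TMM scaling for the sums. All 8 fibroblast markers examined (Col1a1, Vim and others) were detected. Of 13 markers of blood, epithelium, endothelium, muscle, fat and nerve, 3 were not in the table and Cdh1, an epithelial cadherin, reached the highest level, at 4.76 CPM with counts in 43.4% of cells. Ptprc had 1 count in all cells together, Epcam 2 and Adipoq 3.

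All 3 members were higher in cells with bright Venus, and they differed widely in level and in steepness. Bhlhe40 was the most abundant and rose 1.52-fold from the dimmest to the brightest bin (mean of both plates). Bhlhe41 rose 3.45-fold. Ciart, the scarcest, rose 5.24-fold, of which 1 cell carried a sizeable part on plate 1.

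Bhlhe40 on plate 1 stood at 70.4, 75.7, 94.2 and 102 CPM from bin 1 to bin 4. On plate 2 it stood at 67.9, 74.2, 108 and 108 CPM. The levels of bins 1 and 2 lay below those of bins 3 and 4 on both plates, with no overlap. Bin means were 69.1 ± 1.8, 74.9 ± 1.1, 101 ± 9.9 and 105 ± 4.1 CPM (SD, n = 2 plates), and the means of bins 3 and 4 differed by less than that spread. The trend was 0.22 ± 0.02 log2 per bin (SE; adjusted p = 0.00202, edgeR quasi-likelihood F-test). On the lone plates it was 0.19 and 0.25 log2 per bin.

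Bhlhe41, the close relative of Bhlhe40, climbed at each step. On plate 1 its levels were 8.53, 14.4, 20.8 and 32.3 CPM from bin 1 to bin 4. On plate 2 they were 12.1, 17.0, 29.1 and 38.1 CPM. Each plate gave a strictly rising series, and plate 2 lay above plate 1 in all 4 bins. Bin means were 10.3 ± 2.5, 15.7 ± 1.8, 24.9 ± 5.9 and 35.2 ± 4.1 CPM (SD, n = 2 plates). The trend was 0.60 ± 0.03 log2 per bin (SE; adjusted p = 2.02e-04, edgeR quasi-likelihood F-test), and 0.63 and 0.57 on the lone plates.

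Ciart was near its lowest level in both dim bins and higher in both bright ones. On plate 1 its levels were 2.38, 2.57, 5.33 and 13.2 CPM from bin 1 to bin 4. On plate 2 they were 2.31, 1.54, 6.24 and 11.4 CPM. Bins 1 and 2 did not overlap bins 3 and 4, and the order of the dim pair differed between the plates. Bin means were 2.34 ± 0.05, 2.06 ± 0.73, 5.79 ± 0.65 and 12.3 ± 1.3 CPM (SD, n = 2 plates), and bins 1 and 2 differed by less than that spread. The trend was 0.87 ± 0.07 log2 per bin (SE; adjusted p = 0.00118, edgeR quasi-likelihood F-test), and 0.84 and 0.89 on the lone plates. Without bin 4 it was 0.66 log2 per bin and no longer passed, with an adjusted p of 0.0567 by edgeR.

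**Figure D1:**
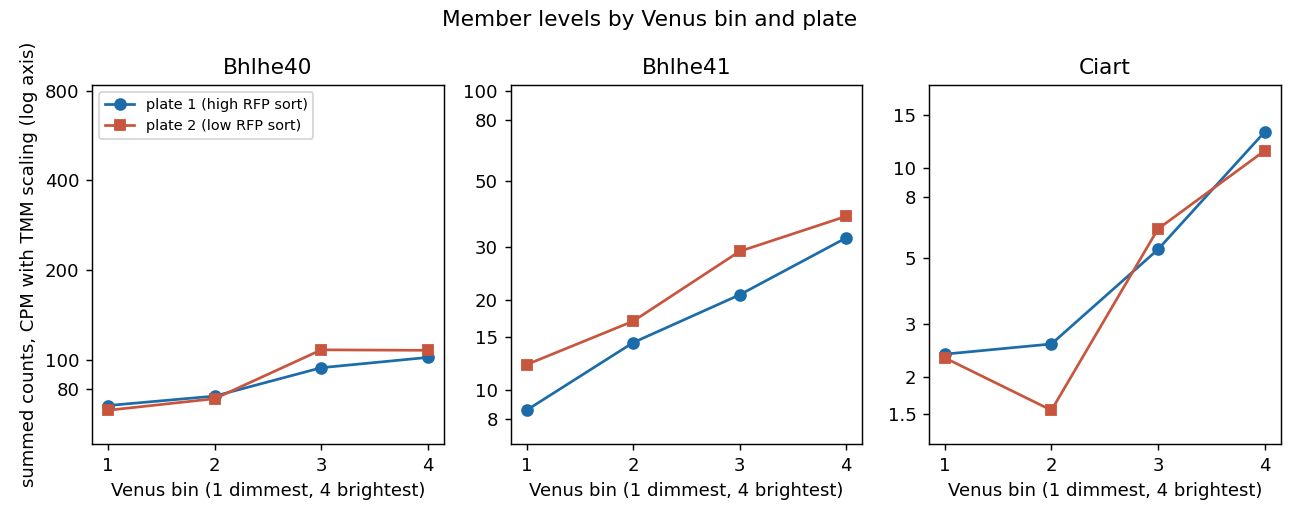
Summed level of each member (CPM with TMM scaling, log axis spanning the same fold range in each panel) against Venus bin, 1 line per plate. Bhlhe40 runs from about 70 to 105 CPM, Bhlhe41 climbs at each step, and Ciart is low in bins 1 and 2 on both plates.

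A single cell weighed on the Ciart values. In bin 4 of plate 1, 1 cell held 320 Ciart counts, or 700 CPM, which was 31.4% of all Ciart counts of that sum. The next highest cell of either plate had 125 CPM. The cell had 456975 counts, 6895 genes and 18.5% mitochondrial counts, against plate medians of 835930, 11106 and 9.27%. It also held 171 CPM of Bhlhe41, the highest of its sum, 140 CPM of Dbp and no count of Arntl. Without it, Ciart in bin 4 of plate 1 was at 9.09 CPM, and the rise from bin 1 on that plate was 3.82-fold in place of 5.55-fold. The Ciart trend was then 0.79 ± 0.08 log2 per bin (SE; adjusted p = 0.00197, edgeR quasi-likelihood F-test), and 0.68 on plate 1 alone.

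Of 18430 genes tested along the bins, 2843 were called at an adjusted p under 0.05 (15.4%), 1250 higher (6.78%) and 1593 lower (8.64%). All 3 members were among the higher genes. For scale, Dbp had a trend of 0.74 ± 0.02 log2 per bin (SE) and Arntl one of -0.72 ± 0.03. The summed S phase and G2/M genes also differed between the bins. The 12 G2/M genes together stood at 183, 265, 277 and 464 CPM from bin 1 to bin 4 on plate 1. On plate 2 they stood at 288, 507, 219 and 469 CPM, highest in bin 2 and without a steady order. The 12 S phase genes stood at 213, 255, 313 and 415 CPM on plate 1, and at 258, 330, 311 and 378 CPM on plate 2. Of these, 9 S phase genes and 5 G2/M genes rose, and none fell. Genes detected per cell went with the bins too, from a median of 10933 to 11300 on plate 1 and from 10867 to 11314.5 on plate 2. Across cells they correlated with Bhlhe41 at 0.123 and 0.273 (-0.063 and 0.113 with cells ranked within bins). With Ciart the values were 0.143 and 0.2035 (0.044 and 0.055 within bins). With Bhlhe40 they were -0.073 and 0.025 (-0.182 and -0.1185 within bins). The part of cell cycle genes and of genes detected in the trends of the members was not tested.

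The steps between neighbouring bins gave the shape of each response. The fitted Bhlhe40 steps were 0.12 ± 0.07, 0.43 ± 0.07 and 0.05 ± 0.07 log2 (SE), with the middle step the largest. Those of Bhlhe41 were 0.61 ± 0.10, 0.66 ± 0.10 and 0.51 ± 0.10 log2, near equal. Those of Ciart were -0.20 ± 0.23, 1.52 ± 0.23 and 1.07 ± 0.21 log2. No step of a member passed on its own by edgeR, with adjusted p from 0.0729 to 0.798, although 6 of the 9 steps were under 0.05 before adjustment: all those of Bhlhe41, the middle step of Bhlhe40 and the last 2 of Ciart. Few genes passed after adjustment at any step, at 0.271%, 0.0651% and 0.260% of those tested. The share of all genes under 0.05 before adjustment was not computed, so the 6 steps cannot be set against these shares. The middle step passed for Dbp, at 1.27 ± 0.07 log2 (adjusted p = 5.14e-04 by edgeR), and for Arntl, at -1.20 ± 0.09 log2 (adjusted p = 0.00504 by edgeR). For Dbp the last step passed as well, at 0.50 ± 0.06 log2 (adjusted p = 0.0396 by edgeR). Without the high cell, the last Ciart step on plate 1 was 0.77 log2 in place of 1.31.

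Steepness was compared between members by the log2 ratio of their counts within each sum, which needs no scaling between libraries. The ratio of Bhlhe41 to Bhlhe40 rose by 0.38 log2 per bin, 0.44 on plate 1 and 0.32 on plate 2. An exact permutation of the bin labels within plates (576 orders, two-sided) gave p = 0.00347, the smallest it can give, and 0.0104 after adjustment over the 3 pairs. The ratio of Ciart to Bhlhe40 rose by 0.64 log2 per bin, 0.65 on plate 1 and 0.64 on plate 2, with an exact permutation p of 0.0104 and 0.0156 adjusted. Bhlhe40 was thus the shallowest of the 3 on both plates. The ratio of Ciart to Bhlhe41 gave 0.27 log2 per bin, 0.22 and 0.32 on the plates, and did not pass, with an exact permutation p of 0.198 (0.198 adjusted). Without the high cell this last value was 0.07 on plate 1 and 0.32 on plate 2. The ratio of Ciart to Bhlhe41 fell from bin 1 to bin 2 on both plates, from -1.84 to -2.48 and from -2.39 to -3.45 log2, and rose after. The permutation weighs the order of the bins, so a dip shared by both plates counts against a steady slope. This test therefore did not separate the steepness of Ciart from that of Bhlhe41, which does not show that they are equal.

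**Figure D2:**
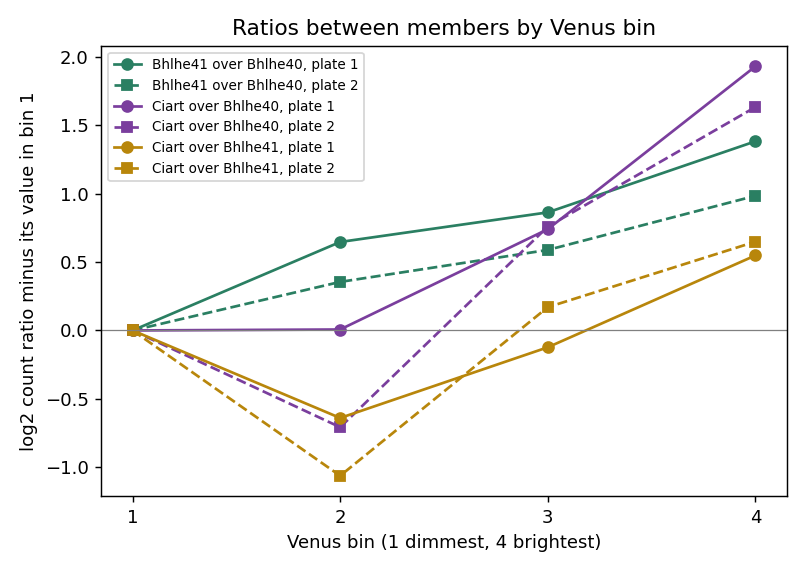
Log2 ratio of summed counts for each pair of members, minus its value in bin 1 (y axis), against Venus bin, with plate 1 as solid and plate 2 as dashed lines. Both ratios over Bhlhe40 end above 0 in bin 4 on each plate, and Ciart over Bhlhe41 first drops below 0 in bin 2.

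Levels were compared between genes per kilobase of annotated exon. In bin 1 Bhlhe40 stood at 14.7 ± 0.4, Bhlhe41 at 1.54 ± 0.38 and Ciart at 1.04 ± 0.02 CPM per kilobase (SD, n = 2 plates). In bin 4 they stood at 22.3 ± 0.9, 5.24 ± 0.62 and 5.44 ± 0.55 CPM per kilobase. Bhlhe40 was the highest in all 4 bins, and Bhlhe41 and Ciart did not differ beyond their spread in bin 4. Without the high cell, Ciart in bin 4 stood at 4.53 ± 0.73 CPM per kilobase. Exon lengths of 4705, 6720 and 2261 bases came from the supplied annotation, whose build differs from that of the counts.

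Over whole plates, the low RFP sort (plate 2) had more Bhlhe41. Its level was 18.7 CPM on plate 1 (95% Poisson interval 18.2 to 19.2) and 24.8 CPM on plate 2 (24.3 to 25.4), a ratio of 1.33. Bhlhe40 was at 84.0 CPM (83.0 to 85.0) and 92.0 CPM (91.0 to 93.1), a ratio of 1.096. Ciart was at 5.73 CPM (5.48 to 6.003) and 5.58 CPM (5.32 to 5.84), a ratio of 0.972, with intervals that overlap. With 1 plate per sort there is no test, and the intervals cover counting error only, since reads amplified by PCR without stated molecular identifiers are not independent molecules.

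Detection in single cells, meaning at least 1 count, separated the members. Bhlhe40 was detected in every passing cell of plate 1 and in 378 of 379 cells of plate 2. Its median among cells rose with its sums, from 64.0 to 93.8 CPM on plate 1 and from 59.4 to 98.3 CPM on plate 2, between bins 1 and 4. Its coefficient of variation among the cells of a sum was 0.44 to 0.69, the lowest range of the 3 members. The trend of Bhlhe40 was thus one of level in cells that nearly all held its RNA.

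Bhlhe41 was detected in 75.8%, 93.8%, 99.0% and 100% of cells from bin 1 to bin 4 on plate 1. On plate 2 the shares were 84.2%, 94.7%, 100% and 100%. In bin 1 the 95% Wilson intervals, which cover counting error only, were 66.3% to 83.3% and 75.6% to 90.2%. The share was near its ceiling from bin 3 on, while the median over all cells went on from 16.4 to 31.2 CPM on plate 1 and from 25.8 to 37.3 CPM on plate 2 between bins 3 and 4. Its coefficient of variation was highest in bin 1, at 1.15 and 1.04, and lay between 0.62 and 0.85 elsewhere.

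Ciart was detected in 34.7%, 31.3%, 51.0% and 74.0% of cells from bin 1 to bin 4 on plate 1. On plate 2 the shares were 29.5%, 26.6%, 55.2% and 79.8%. The Wilson interval of bin 4 was 64.4% to 81.7% on plate 1 and 70.6% to 86.7% on plate 2. Those of bin 1 were lower (25.9% to 44.7% and 21.2% to 39.3%). These intervals cover counting error among the cells of a sum only. Cells are not replicates of a bin, so their distance is no test. With each cell thinned to 500000 counts, which left out 12 shallower cells, the shares were 32.6%, 28.1%, 50.5% and 69.1% on plate 1, and 26.3%, 25.6%, 53.1% and 76.3% on plate 2. The dim bins thus kept the lower shares at equal depth.

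Among cells with Ciart counts, the median level differed less between the bins than the share did. It was 5.21, 5.67, 7.19 and 7.52 CPM from bin 1 to bin 4 on plate 1, and 4.65, 5.05, 7.72 and 9.78 CPM on plate 2. A median of 4 to 8 counts per cell stood behind these values. The 5 highest cells held 26.7% to 50.1% of the Ciart counts of a sum, against 11.1% to 16.1% for Bhlhe40. Its coefficient of variation was 1.41 to 2.54 in 7 sums and 4.29 in the sum with the high cell. No class of these cells is known to lack Ciart, so the share due to free RNA was not tested.

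**Figure D3:**
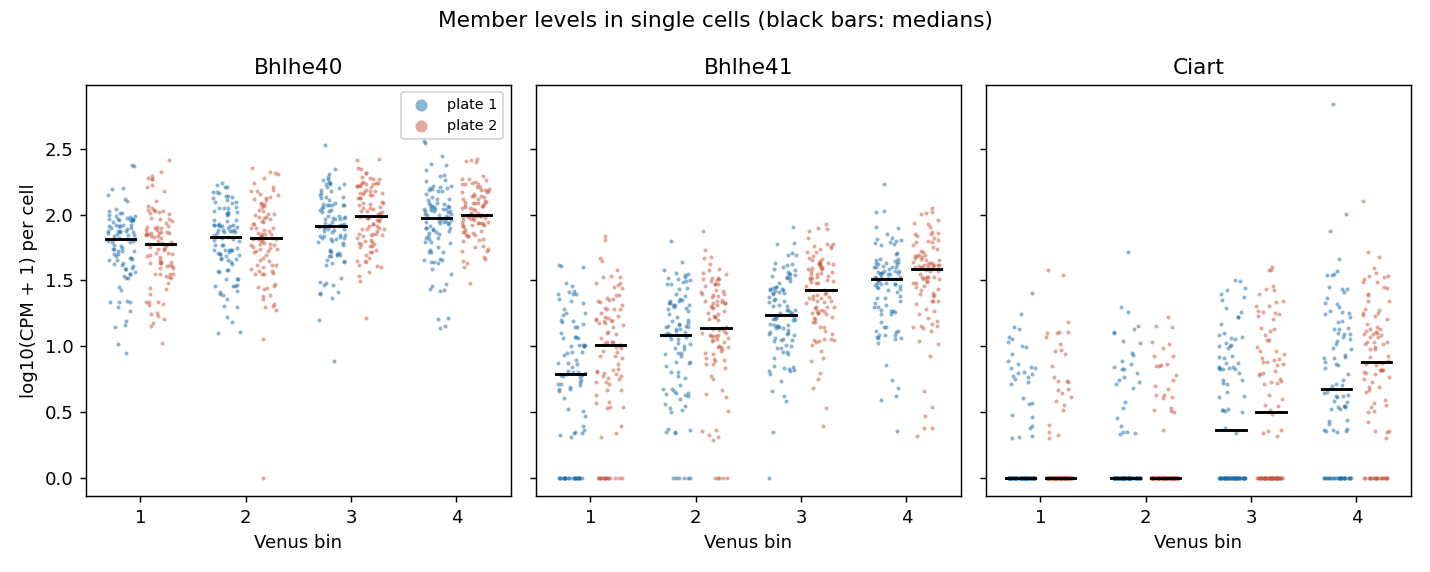
Level of each member in every passing cell, as log10(CPM + 1), by Venus bin and plate, with black bars at the medians. Bhlhe40 is above 0 in all cells but 1, Bhlhe41 has its zeros mostly in bin 1, and Ciart has a median of 0 in bins 1 and 2 and 1 cell at 700 CPM in bin 4 of plate 1.

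Relations across cells were described by Spearman correlations of CPM, over 383 cells of plate 1 and 379 of plate 2. Cells of a plate share handling and library preparation and differ in Venus bin. Correlations with Dbp, with Arntl, between members and with summed lists are therefore also given with cells ranked within their bin. The genes most and least like each member were picked over whole plates. No p is given for any of these correlations.

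With Dbp, all 3 members were positively related. Bhlhe40 gave 0.372 on plate 1 and 0.410 on plate 2, and 0.256 and 0.222 within bins. Bhlhe41 gave 0.525 and 0.406, and 0.289 and 0.087 within bins. Ciart gave 0.308 and 0.405, and 0.109 and 0.149 within bins. The relation to Dbp was thus weaker within bins for each member, and the Bhlhe40 value within single bins was positive in all 8 sums, from 0.155 to 0.369. For Bhlhe41 it was negative in bin 2 of plate 2 (-0.085), and for Ciart in bin 1 of plate 1 (-0.154) and bin 2 of plate 2 (-0.092).

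With Arntl, all 3 were negatively related over whole plates. Bhlhe40 gave -0.205 and -0.275, Bhlhe41 -0.346 and -0.297, and Ciart -0.355 and -0.296. Within bins the values were near 0 for Bhlhe40 (-0.050 and -0.094) and Bhlhe41 (-0.059 and -0.064). Those of Ciart within bins were -0.185 on plate 1 and -0.054 on plate 2. The sign within single bins varied for each member, from -0.179 to 0.137 for Bhlhe40, from -0.219 to 0.049 for Bhlhe41 and from -0.380 to 0.181 for Ciart.

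Against the 12800 other genes detected in at least 20% of cells on each plate, these relations were at the extremes. By the mean of both plates, Dbp ranked 1 from the top for Bhlhe40, 4 for Bhlhe41 and 5 for Ciart. Arntl ranked 12799, 12797 and 12800, the last being the lowest place. The central 90% of genes lay between -0.092 and 0.097 for Bhlhe40, between -0.122 and 0.141 for Bhlhe41, and between -0.086 and 0.104 for Ciart. Genes that follow the Venus bins share part of any such correlation through the sort.

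Splitting each plate into quartiles of its cells by Dbp gave the same contrast in levels. From the lowest to the highest quartile, mean Bhlhe40 was 64.3, 71.8, 86.1 and 114 CPM on plate 1, and 69.9, 79.9, 93.3 and 126 CPM on plate 2. Mean Bhlhe41 was 8.90, 13.8, 19.8 and 33.5 CPM on plate 1, and 14.8, 20.05, 23.4 and 39.5 CPM on plate 2. Mean Ciart was 2.34, 2.43, 5.30 and 16.5 CPM on plate 1, and 2.97, 2.90, 5.50 and 10.5 CPM on plate 2. Both lower quartiles of Dbp thus held about equal Ciart on each plate. The high cell lay in the top quartile of plate 1, which averaged 9.32 CPM of Ciart without it.

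By quartiles of Arntl, Bhlhe41 ran the other way, from 27.9 CPM in the lowest quartile to 10.9 in the highest on plate 1, and from 32.99 to 16.5 on plate 2. Bhlhe40 ran from 102 to 72.3 CPM and from 115 to 72.6 CPM. Ciart ran from 16.8 CPM (9.55 without the high cell) to 1.75 CPM on plate 1. On plate 2 its mean was 6.01 CPM in the lowest Arntl quartile, 8.53 in the next, then 5.02 and 2.33. That next quartile includes the plate 2 cell with 125 CPM of Ciart, and the medians of these first 2 quartiles were 2.81 and 4.01 CPM. The quartile with the least Arntl on plate 2 therefore did not have the highest mean or median Ciart, a difference that was not tested.

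**Figure D4:**
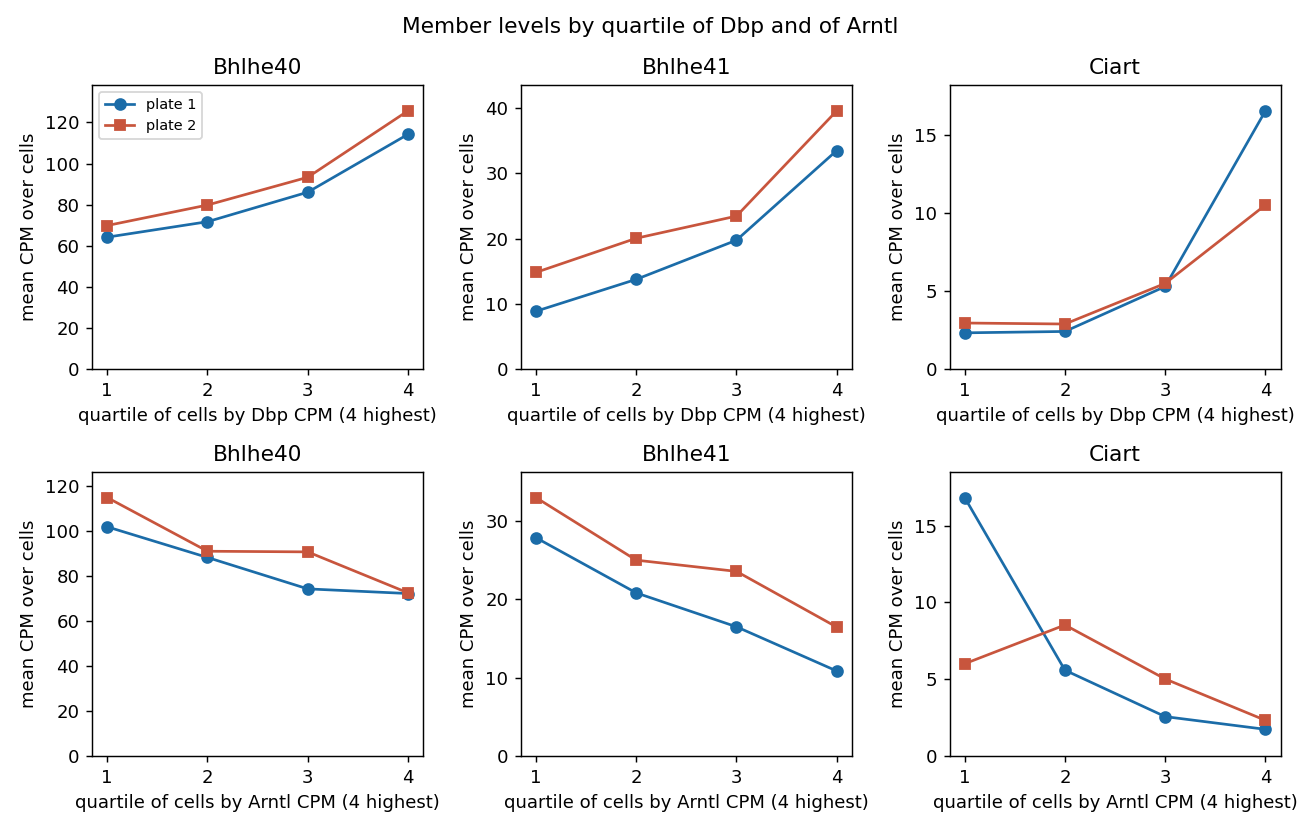
Mean CPM of each member over the cells of each quartile of Dbp (top) and of Arntl (bottom), quartile 4 being the highest, for both plates. Bhlhe41 runs from 8.90 to 33.5 CPM over the Dbp quartiles of plate 1, and the Ciart point of quartile 4 on plate 1 (16.5 CPM) includes the cell at 700 CPM.

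Cells with at least 1 Ciart count differed from those without in the same sense. Their median Dbp was 41.0 CPM on plate 1 and 53.7 on plate 2, against 18.7 and 21.8 CPM in cells without Ciart. Their median Arntl was 12.7 and 11.7 CPM, against 32.99 and 34.2 CPM. Depth was similar, with median totals of 839481 against 834233 counts on plate 1 and 865372 against 845839 on plate 2. Within single bins neither difference was uniform. In bin 1, cells with Ciart had a median of 5.57 CPM of Dbp against 11.1 without on plate 1, and 21.1 against 9.65 on plate 2. Median Arntl was higher in cells with Ciart in bin 1 of plate 1, at 47.7 against 44.5 CPM. The same held on plate 2 in bin 3 (11.4 against 9.46 CPM) and bin 4 (7.48 against 2.53 CPM). In the other sums it was lower in cells with Ciart.

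Among the members themselves, Bhlhe40 and Bhlhe41 were the closest pair, at 0.319 on plate 1 and 0.338 on plate 2 (0.225 and 0.155 within bins). Bhlhe40 and Ciart gave 0.176 and 0.280 (0.097 and 0.136 within bins). Bhlhe41 and Ciart gave 0.221 and 0.195, and 0.071 and -0.061 within bins, with opposite signs on the plates. By the mean over plates, Bhlhe41 ranked 5 of 12800 genes in likeness to Bhlhe40, and Ciart ranked 10. Ciart ranked 129 in likeness to Bhlhe41.

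The genes most like each member across cells were largely the reporter and known clock output genes. For Bhlhe40 they were Dbp (mean rho 0.391), Tef (0.376), Nr1d1 (0.341), the YFP reporter feature (0.334) and Bhlhe41 (0.329). For Bhlhe41 they were YFP (0.529), Nr1d1 (0.524), Tef (0.469), Dbp (0.465) and Scrn1 (0.405). For Ciart they were Nr1d1 (0.387), YFP (0.377), Tef (0.370), Nr1d2 (0.366) and Dbp (0.357). Tef encodes a D-box activator related to Dbp, and Nr1d1 and Nr1d2 encode the REV-ERB repressors.

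The lowest correlations differed between the members. They were Cks1b, a cyclin-dependent kinase subunit (-0.278), Arntl (-0.240) and Fscn1, an actin bundler (-0.226), for Bhlhe40. They were Ncam1, a cell adhesion molecule (-0.364), Tmem132a (-0.349) and Trim35 (-0.325) for Bhlhe41. They were Arntl (-0.326), Pnrc1 (-0.243) and Camk2d (-0.224) for Ciart. Of these genes, only Arntl was also computed within bins. Venus fluorescence itself correlated with Bhlhe41 at 0.571 and 0.525, with Ciart at 0.338 and 0.431, and with Bhlhe40 at 0.270 and 0.373. Within bins these values were 0.141 and 0.070, 0.051 and 0.065, and 0.049 and 0.030.

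**Figure D5:**
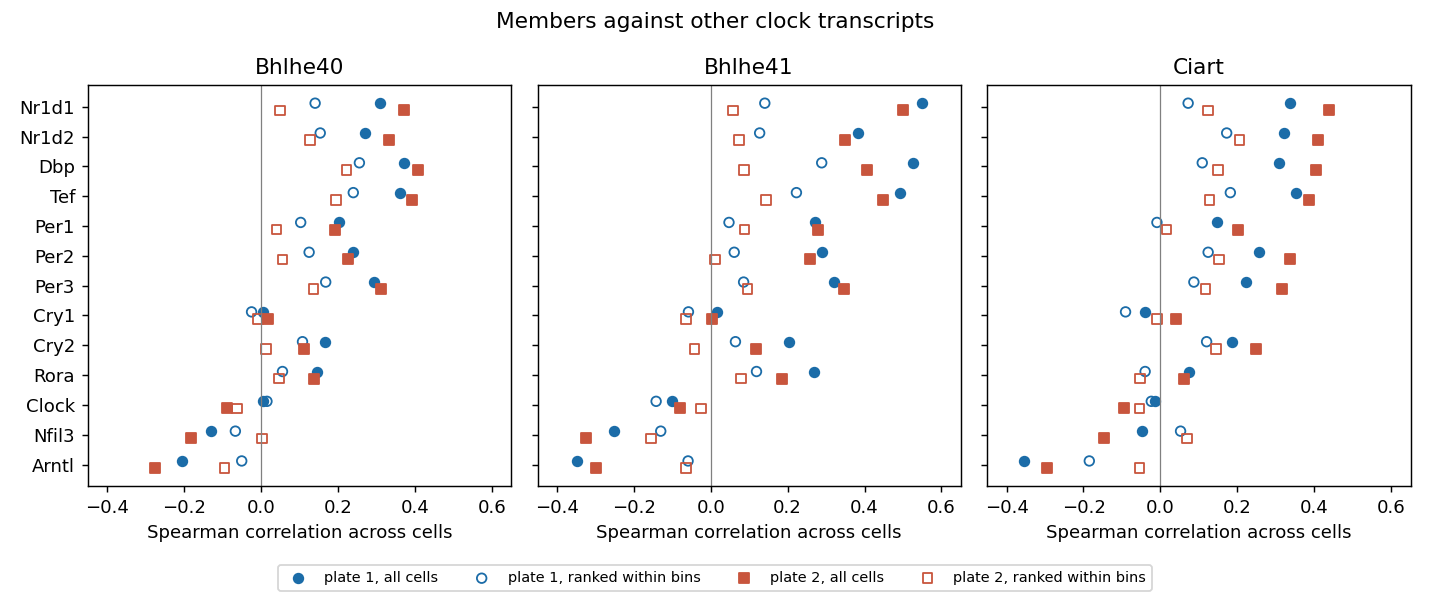
Spearman correlation across cells (x axis) of each member with 13 clock transcripts (y axis), for each plate, over all cells (filled) and with cells ranked within Venus bins (open). Filled points for Dbp and Tef lie to the right of 0 and those for Arntl to the left for all 3 members, and the open points for Dbp, Tef and Arntl lie nearer to 0.

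Known inputs and partners of these repressors were described as lists. Of 16 clock genes other than the members, 10 rose along the bins (both Rev-erb genes, Per1, Per2, Per3, Cry1, Cry2, Dbp, Tef and Rora), 2 fell (Arntl and Nfil3) and 4 did not pass (Clock, Npas2, Hlf and Usp2), with a median trend of 0.28 log2 per bin against 0.0005 over all genes tested, of which 6.78% rose and 8.64% fell. The Bhlhe41 trend (0.60) lay between those of Tef (0.54 ± 0.02) and Nr1d2 (0.64 ± 0.03). The Bhlhe40 trend (0.22) lay near those of Rora (0.27 ± 0.03) and Cry2 (0.29 ± 0.03), values in log2 per bin with SE. The Ciart trend was 0.87, or 0.79 ± 0.08 without the high cell, beside 0.70 ± 0.07 for Per2 and 0.74 ± 0.02 for Dbp. On plate 1 alone, Ciart without that cell was at 0.68, below Dbp (0.72) and Per2 (0.71). The differences between these genes were not tested.

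Of the HES and HEY relatives of Bhlhe40 and Bhlhe41, 5 of 10 were in the table and 3 were tested, and none passed by edgeR or limma. Only Hes6 was under 0.05 before adjustment, and it was called by DESeq2. Hes6, the most abundant at 24.05 CPM, had a trend of -0.17 ± 0.05 log2 per bin (adjusted p = 0.0621 by edgeR). Of 10 co-repressors and partners (histone deacetylases, Sin3 and NCoR subunits, Rxra and others) none passed by edgeR or limma, with a median trend of -0.05 log2 per bin. Before adjustment 4 were under 0.05 in edgeR (Hdac2, Hdac3, Sin3a and Ncor1), and DESeq2 called 2 (Hdac3 and Ncor1). The edgeR trends of those 4 were small, from -0.075 (Hdac3) to -0.05 (Ncor1) log2 per bin. Over all 18430 genes, edgeR called 2843 (15.4%), limma 3056 and DESeq2 3569. The share of all genes under 0.05 before adjustment was not computed, so the unadjusted counts of both lists have no background beside them.

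Bhlhe40 and Bhlhe41 are known hypoxia-inducible genes. Of 20 other hypoxia-inducible genes, 4 rose (Slc2a1, Ndrg1, Ldha and Pgk1), 3 fell (Bnip3l, Ero1l and Ddit4) and 13 did not pass, with a median of -0.02 log2 per bin. Over all genes tested, 6.78% were called higher and 8.64% lower. The called values ran from -0.27 ± 0.04 (Ddit4, an mTOR inhibitor) to 0.16 ± 0.02 (Ndrg1). Across cells, the summed list correlated with Bhlhe40 at 0.020 on plate 1 and 0.0004 on plate 2 (-0.037 and -0.053 within bins). With Bhlhe41 it correlated at 0.029 and 0.041 (-0.096 and -0.046 within bins). With Ciart the values were 0.171 and 0.214 (0.103 and 0.155 within bins). Ldha (513 CPM) and Pgk1 (218 CPM), both among the rising genes, weigh most in that sum. It therefore does not stand for the 20 genes alike.

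Bhlhe40 is also a known target of TGF-beta signalling. Of 8 early TGF-beta targets, 6 fell along the bins (Smad7, Skil, Ccn2, Tgif1, Ccn1 and Junb), none rose and 2 did not pass, with a median of -0.16 log2 per bin, opposite in sign to the Bhlhe40 trend. Of all genes tested, 8.64% fell. Across cells, Bhlhe40 correlated positively with the summed CPM of the 8 targets, at 0.116 and 0.182, and at 0.173 and 0.223 within bins. Tgfbi (405 CPM), which did not fall, and Ccn1 (231 CPM) weigh most in that sum. It therefore does not stand for the 6 falling genes alike. The correlation of Bhlhe40 with the summed G2/M genes was -0.036 and -0.113 (-0.111 and -0.170 within bins). With the S phase genes it was -0.082 and -0.121 (-0.106 and -0.151 within bins). Bhlhe41 gave 0.125 and 0.064 with G2/M (0.003 and -0.012 within bins), and 0.026 and -0.059 with S phase (-0.034 and -0.114). Ciart gave 0.050 and 0.107 with G2/M (-0.025 and 0.067 within bins), and 0.015 and 0.086 with S phase (-0.026 and 0.0515).

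All 3 members overlap another gene on the opposite strand in the supplied annotation, and whether reads were counted by strand is not given in the sources used here. The partner of Ciart, C920021L13Rik, had a trend of -0.10 ± 0.06 log2 per bin (adjusted p = 0.353 by edgeR). The partner of Bhlhe40, 0610040F04Rik, had one of -0.02 ± 0.24 (adjusted p = 0.967 by edgeR). That of Bhlhe41, Gm43909, was not analysed here. If reads were counted without strand, those of the overlapping parts cannot be assigned to one gene or the other.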

How the data were processed

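Raw counts for each gene in each cell were deposited by the authors, together with a sorting record that gives every cell's fluorescence and scatter intensity in arbitrary units, its gate and, in an image name, its RFP sort. STAR 2.7.11a, SAMtools, bedtools, HTSeq and build GRCm39 are named in the submitters' processing notes, without role or order. The annotation release, use of strand and molecular identifiers are not given in the sources used here. A total of 24902 of the 33757 features matched a symbol once version suffixes were ignored. Features without one held 1.07% of counts and stayed in the fit.

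Gates were joined to cells by plate and well and ordered by median Venus intensity. A cell was kept if it had 1000 or more genes, 0.1 or more of its plate's median total and no more than 25% mitochondrial counts (762 of 768). No doublet caller was run, since wells received single sorted cells per the labels' protocols. The trend over bins was fitted to the 8 sums with edgeR 4.0.16 in R 4.3.3 (TMM, filterByExpr by bin, bin and plate as terms, quasi-likelihood F-test, linear contrast in log2 per bin, Benjamini-Hochberg over 18430 genes, threshold 0.05). Trends of 1 plate, without a test, used log2 CPM (prior count 2). In simulated counts for 8 such sums over 17832 genes, the fit recovered 78 of 100 trends of 0.2 and 100 of 100 of 0.6 log2 per bin, with 9 false calls. The simulation held no difference between plates and placed trends only in genes above a floor of CPM. It also changed far fewer genes than were called in the data, so these rates may not carry over to the data. Ratios of members used counts plus 1. Exact tests and correlations were computed in Python 3.11.15 with SciPy 1.17.1.

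Nothing states that the plates came from separate cultures, so the p-values of the fits cover the spread between these 2 plates only. Any difference in trend between the RFP sorts is part of that spread. The exact permutation p-values rest on the order of the bins within plates and do not measure the spread between plates. The plates are blocked in the fit, which removes a constant difference between them. Alternatives were DESeq2 1.42.0, limma 3.58.1 on mean CPM, other scaling, filters, cell sets and thinning. The members, lists and tests were chosen with earlier results of these data known. Genes named are the members, the lists, the reporter features and, for each member, the 5 highest and 3 lowest mean Spearman correlations among genes detected in at least 20% of cells of each plate. Antisense partners were named in addition after their values were seen. RefSeq promoter windows (GRCm38.p6) were matched by symbol.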

Additional observations from a re-analysis of the deposited data

Results flagged for a closer look

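Some steps of single members had opposite signs on the 2 plates, and these differences between plates were not tested. From bin 1 to bin 2, Ciart was 0.11 log2 higher on plate 1 and changed by -0.58 log2 on plate 2, where the sums held 186 and 120 counts. From bin 3 to bin 4, Bhlhe40 was 0.11 log2 higher on plate 1 and moved by -0.01 log2 (-0.0053) on plate 2. The plates also differ in RFP sort.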

How the results depend on the processing

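The Bhlhe40 trend lay between 0.22 and 0.28 log2 per bin and the Bhlhe41 trend between 0.58 and 0.64 under 11 alternative fits each, with adjusted p up to 0.0314 and 0.0105 (edgeR, limma or DESeq2). These include 3 alternatives added after seeing the data: leaving out bin 1, bin 4 or the cell with the highest Ciart level. The Ciart trend passed under 10 of 11, and without bin 4 it was 0.66 (adjusted p = 0.0567). It was 1.296 without bin 1, 0.78 under the stricter cell filter and 0.80 in thinned cells. Leaving out plate 1 or plate 2 gave 0.19 to 0.25 for Bhlhe40, 0.57 to 0.63 for Bhlhe41 and 0.84 to 0.89 for Ciart, with no test and with no count of called genes. Without the replicate block (the plate term) the trends were 0.22, 0.60 and 0.87, all still called.

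The number of called genes moved from 2843 to 1858 with bin as a linear term, 1683 without the plate block, 1139 without bin 1 and 358 without bin 4. The last 2 fits hold fewer sums.

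The Ciart to Bhlhe40 slope difference ranged from 0.55 to 0.70 log2 per bin and passed in all 7 alternatives (exact permutation p up to 0.0208). That of Bhlhe41 to Bhlhe40 ranged from 0.36 to 0.42 and passed in all. That of Ciart to Bhlhe41 ranged from 0.19 to 0.31 and passed in none. On the lone plates these were 0.64 to 0.65, 0.32 to 0.44, and 0.22 to 0.32.

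Mean detection over the plates depends on the counts asked for. Bhlhe41 went from 93.4% to 89.8% at 2 counts, 79.4% at 5 counts and 91.5% when thinned, and Ciart from 47.8% to 42.9%, 29.5% and 45.3%. Ranking cells within bins lowered the mean size of all 6 correlations with Dbp and Arntl, and none changed sign. With 2 plates and 1 plate per sort, small steps of single members could not be resolved.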
